A study of Mus musculus with 4 samples.

Results

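Genes that the glucocorticoid receptor induces in brain were followed across the hippocampal libraries of mice lacking the estrogen receptor co-regulator PELP1 in the forebrain. They are Fkbp5, Sgk1, Tsc22d3, Zbtb16, Pdk4, Sult1a1, Klf9 and Errfi1, taken by symbol from the deposited tables. All 8 were found among the 22609 listed genes, and all 8 passed the filter on low counts. The 2 PELP1 FBKO libraries (C57BL/6, forebrain knockout of Pelp1) were compared with the 2 FLOXED libraries (C57BL/6). Every animal of both genotypes had been ovariectomized, carried an estradiol (E2) mini pump, underwent global cerebral ischemia (GCI, in which the brain's blood supply is cut off for a time) and was killed after 24 h of reperfusion. Surgery, ischemia and estradiol were thus common to both groups, and levels before them were not analysed here. The Cre driver of the knockout, the deleted part of the gene, the animals' age and whether libraries came from single or pooled animals are not given in the sources used here. P-values therefore cover the spread between these libraries alone, and that spread may be technical.

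Glucocorticoids, chiefly corticosterone in mice, enter cells freely and bind the glucocorticoid receptor, which waits in the cytoplasm in a complex with the chaperone HSP90. The bound receptor moves to the nucleus and attaches to a palindromic DNA element beside its target genes. The hippocampus holds both this receptor and the mineralocorticoid receptor, which binds corticosterone more tightly, and is among the brain regions most responsive to the hormone. Transcripts such as Fkbp5, Sgk1 and Tsc22d3 climb within hours of a rise in corticosterone and are widely read as a record of exposure. Corticosterone itself was not analysed here.

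Libraries held between 17524594 and 22447658 reads assigned to genes. Levels are given as CPM (counts scaled to library size) after TMM, a normalization that assumes most genes do not differ. Pelp1, the targeted gene, stood at 18.0 and 17.3 CPM in PELP1 FBKO against 26.7 and 26.2 CPM in FLOXED, so its level matched the labels in direction. Its log2 fold change of -0.59 (SE 0.15) did not pass the threshold (edgeR quasi-likelihood, adjusted p = 0.130). Replicates of a genotype differed by far more than sampling noise, so none was merged with another. The chi-square per degree of freedom was 17.4 in PELP1 FBKO and 23.3 in FLOXED. Between genotypes it ran from 22.4 (FLOXED 2 with PELP1 FBKO 1) to 46.85 (FLOXED 1 with PELP1 FBKO 1). A pair across genotypes was thus as alike as the FLOXED replicates.

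Sult1a1, Pdk4 and Tsc22d3 were higher in PELP1 FBKO than in FLOXED with no overlap of libraries, with log2 fold changes of 1.00, 0.73 and 0.40. The other 5, among them Fkbp5, overlapped between genotypes. None of the 8 passed an adjusted p of 0.05 over all 14978 tested genes, where edgeR's quasi-likelihood test called 0%. Before adjustment, the same test had 3 of the 8 higher and 0 lower with p below 0.05, against 10.1% higher and 5.55% lower over all tested genes. DESeq2 and edgeR's exact test each called 1 member, Sult1a1, against a background of 2.19% of genes called higher and 0.892% lower by DESeq2, and 3.75% higher and 1.32% lower by the exact test. Groups without overlap were found for 3 of the 8 members, all with PELP1 FBKO above, where over all tested genes they were found for 48.4%, with PELP1 FBKO above in 25.4%. The median log2 fold change was 0.34 over the 8 genes and 0.00 over all tested genes.

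**Figure D1:**
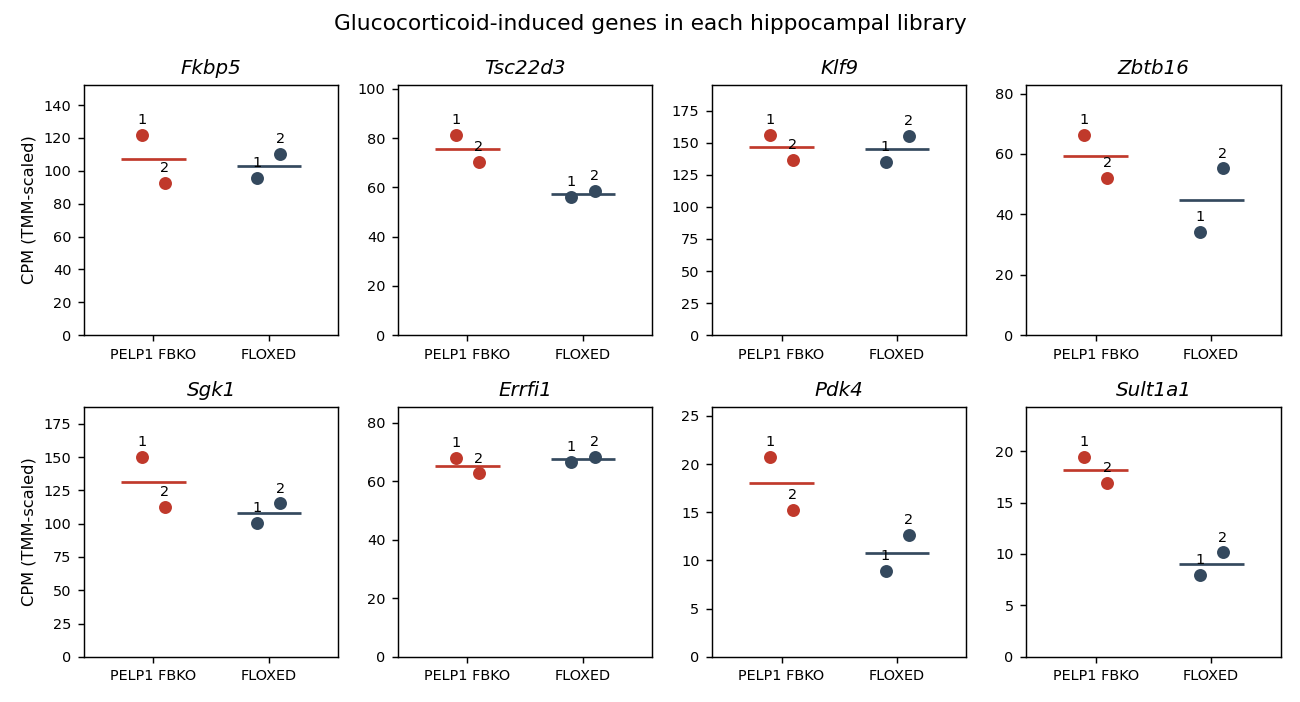
Level of each glucocorticoid-induced gene (TMM-scaled CPM, linear axis from 0) in the PELP1 FBKO and FLOXED libraries, with replicate numbers beside the points and a bar at the mean of each genotype. Sult1a1, Pdk4 and Tsc22d3 show no overlap between genotypes, and PELP1 FBKO 1 is the highest library for 7 of the 8 genes.

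The feedback regulators were described first. Fkbp5 encodes FKBP51, a co-chaperone that joins the receptor's HSP90 complex, lowers its affinity for hormone and so closes a short feedback loop. Fkbp5 stood at 122 and 92.7 CPM in PELP1 FBKO and at 95.8 and 110.5 CPM in FLOXED. The highest and the lowest of the 4 values both came from PELP1 FBKO, so the genotypes overlapped fully. Its log2 fold change was 0.06 (SE 0.16, edgeR adjusted p = 0.906), with a 95% interval of -0.32 to 0.44 on the log2 scale. The sign turned to -0.17 without PELP1 FBKO 1.

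Tsc22d3 encodes GILZ, a leucine zipper protein that carries part of the anti-inflammatory action of glucocorticoids by binding NF-kB and AP-1. It was at 81.2 and 70.2 CPM in PELP1 FBKO and at 56.1 and 58.5 CPM in FLOXED. Both PELP1 FBKO libraries lay above both FLOXED libraries, and FLOXED 1 and FLOXED 2 were close to each other. The log2 fold change was 0.40 (SE 0.13, edgeR unadjusted p = 0.0169, adjusted p = 0.211). No alternative setting brought it past the threshold, with adjusted p between 0.118 and 0.820 over 15 of them.

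Transcription factors induced by the hormone made up the next pair. Klf9, a Krüppel-like factor that glucocorticoid and thyroid hormone induce in neurons, was among the least variable members. Its level was 156 and 137 CPM in PELP1 FBKO against 135 and 155 CPM in FLOXED, values that interleave. The log2 fold change was 0.01 (SE 0.14, edgeR adjusted p = 0.977), and its 95% interval ran from -0.31 to 0.34.

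Zbtb16 encodes PLZF, a zinc finger repressor whose transcript responds strongly to glucocorticoids in many tissues. It was at 66.3 and 52.1 CPM in PELP1 FBKO and at 34.2 and 55.2 CPM in FLOXED. FLOXED 1 was the low library, while FLOXED 2 lay between the PELP1 FBKO libraries. The log2 fold change of 0.40 (SE 0.23, edgeR adjusted p = 0.439) rested on that library, being 0.10 without FLOXED 1 and 0.78 without FLOXED 2. Zbtb16 and Tsc22d3 thus had nearly the same fold change with a different spread behind it.

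Among the signalling genes, Sgk1 encodes a serum- and glucocorticoid-induced kinase that regulates ion channels and transporters, and Errfi1 encodes MIG6, an inhibitor of EGF receptor family kinases. Sgk1 stood at 150.2 and 112 CPM in PELP1 FBKO and at 100.5 and 115 CPM in FLOXED. PELP1 FBKO 1 stood alone at the top, and the other 3 libraries were close. Its log2 fold change was 0.28 (SE 0.17, edgeR adjusted p = 0.458), with 0.04 without PELP1 FBKO 1 and 0.48 without PELP1 FBKO 2.

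Errfi1 was the flattest gene of the 8. It lay at 67.8 and 62.7 CPM in PELP1 FBKO and at 66.6 and 68.4 CPM in FLOXED, with the highest library 1.09-fold above the lowest. Its log2 fold change was -0.05 (SE 0.13, edgeR adjusted p = 0.892), and the 95% interval ran from -0.34 to 0.24.

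The metabolic targets showed the widest separation. Pdk4 encodes pyruvate dehydrogenase kinase 4, which switches off pyruvate dehydrogenase and so turns cells from glucose to fatty acid oxidation. It was at 20.8 and 15.3 CPM in PELP1 FBKO and at 8.95 and 12.7 CPM in FLOXED, from 458 and 312 reads in PELP1 FBKO against 157 and 275 reads in FLOXED. The groups did not overlap, though the gap between PELP1 FBKO 2 and FLOXED 2 was smaller than the gap within either genotype. The log2 fold change was 0.73 (SE 0.23, edgeR unadjusted p = 0.0137, adjusted p = 0.195), and it passed the threshold in 1 of 15 alternatives, without PELP1 FBKO 2 (log2 fold change 0.94, adjusted p = 0.0122). The log2 fold change of Pdk4 was 0.47 without PELP1 FBKO 1 (edgeR adjusted p = 0.502) and 0.51 without FLOXED 1 (adjusted p = 0.548).

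Sult1a1 encodes a sulfotransferase that conjugates phenols and estrogens. It had 19.4 and 16.9 CPM in PELP1 FBKO against 7.98 and 10.1 CPM in FLOXED, from 429 and 345 reads in PELP1 FBKO against 140 and 220 reads in FLOXED. Here the gap between genotypes exceeded the spread within each of them. The log2 fold change was 1.00 (SE 0.19, edgeR unadjusted p = 0.000852, adjusted p = 0.0819), and 3.03% of all tested genes had a larger one. It passed the threshold in 8 of 15 alternatives, with adjusted p between 0.00172 and 0.288, and among the single-library omissions it missed only without FLOXED 1 (log2 fold change 0.84). In the reference annotation 61 bases of its exons overlap Sgf29, a neighbour on the other strand that the tables do not list under that symbol, and the strand setting of the counting is not given.

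**Figure D2:**
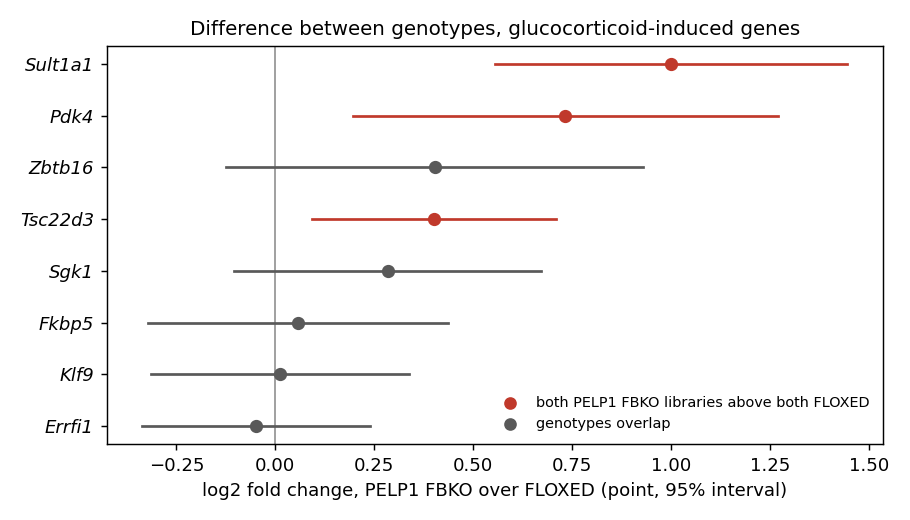
Log2 fold change of each member, PELP1 FBKO over FLOXED, with its 95% interval from the edgeR quasi-likelihood fit; red marks genes with both PELP1 FBKO libraries above both FLOXED libraries. Values run from -0.05 for Errfi1 to 1.00 for Sult1a1, and the intervals of Sult1a1, Pdk4 and Tsc22d3 lie above 0 before adjustment for multiple tests.

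The start-site sequences of the members were read for the receptor's binding element; the genes were not chosen for holding it. RefSeq promoter windows of GRCm38.p6, 250 bases before to 50 bases after a start site, matched 7 of the 8 genes by symbol in 15 windows. The motifs searched, on both strands, were the full palindrome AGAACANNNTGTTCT, its core ACANNNTGT, and a single arm TGTTCT. The full palindrome contains the core and an arm in each orientation. The full palindrome occurred in 0.00913% of 32851 windows (3 windows), the core in 6.85% and the single arm in 19%. Of the 15 member windows, 2 held the core, 5 a single arm and 9 none of these letters. The windows below are the one with a full palindrome (Sgk1) and those of the non-overlapping genes with a single arm (Sult1a1, Tsc22d3), each 5′ to 3′ on the gene's strand, with matches in capitals.
Sgk1, chr10:21993640-21993939, plus strand: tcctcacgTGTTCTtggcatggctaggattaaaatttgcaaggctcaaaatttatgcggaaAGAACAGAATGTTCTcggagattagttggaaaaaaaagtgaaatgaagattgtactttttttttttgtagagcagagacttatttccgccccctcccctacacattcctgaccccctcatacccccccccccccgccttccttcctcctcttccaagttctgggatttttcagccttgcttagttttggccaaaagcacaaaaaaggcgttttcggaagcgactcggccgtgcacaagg
Sult1a1, chr7:126676369-126676668, minus strand: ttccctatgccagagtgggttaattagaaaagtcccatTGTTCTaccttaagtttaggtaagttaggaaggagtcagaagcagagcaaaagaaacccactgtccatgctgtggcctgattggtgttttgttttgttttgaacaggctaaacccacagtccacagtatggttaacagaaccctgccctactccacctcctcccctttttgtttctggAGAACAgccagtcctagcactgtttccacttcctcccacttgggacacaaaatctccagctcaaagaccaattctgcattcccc
Tsc22d3, chrX:140600473-140600772, minus strand: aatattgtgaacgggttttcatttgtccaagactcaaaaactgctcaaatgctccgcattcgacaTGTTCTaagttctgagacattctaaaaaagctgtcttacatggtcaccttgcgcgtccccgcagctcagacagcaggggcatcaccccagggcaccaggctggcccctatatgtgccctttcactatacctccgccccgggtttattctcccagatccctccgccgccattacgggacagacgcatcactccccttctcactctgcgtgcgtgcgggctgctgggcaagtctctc
The Sgk1 window held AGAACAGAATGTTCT, starting 189 bases before this start site, and a separate single arm. That start is 1 of 6 annotated for Sgk1, whose genotypes overlapped. Of its other windows, 1 held a core palindrome and 2 a single arm each. Sult1a1, with the largest fold change, had 2 single arms and no full palindrome in its window. One of 3 Tsc22d3 windows had a single arm, and the single windows of Fkbp5, Klf9 and Pdk4 and both of Errfi1 had no match to these letters. Gene-level counts do not tell which start site was used.

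Set per kilobase of the longest annotated transcript (RPKM from the GENCODE vM21 lengths), the members spanned about an order of magnitude. In PELP1 FBKO the means ran from 42.4 for Sgk1 through 32.7 for Klf9, 27.8 for Fkbp5, 26.3 for Tsc22d3, 21.4 for Errfi1, 13.3 for Sult1a1 and 11.6 for Zbtb16 down to 5.17 for Pdk4. In FLOXED they ran from 34.8 for Sgk1 through 32.4 for Klf9, 26.7 for Fkbp5, 22.2 for Errfi1, 19.9 for Tsc22d3, 8.74 for Zbtb16 and 6.62 for Sult1a1 down to 3.11 for Pdk4. The order differed between genotypes in 2 places, Tsc22d3 with Errfi1 and Sult1a1 with Zbtb16. Libraries of neighbouring genes overlapped for Klf9 with Fkbp5, Fkbp5 with Tsc22d3 and Sult1a1 with Zbtb16 in PELP1 FBKO, and for Sgk1 with Klf9 and Zbtb16 with Sult1a1 in FLOXED. Genes with several start sites, such as Sgk1 and Tsc22d3, may have a shorter transcript in use, which would raise their level.

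Single libraries stood out in the pattern. PELP1 FBKO 1 was the highest library for 7 of 8 members, and FLOXED 1 the lowest for 6 of 8, where over all tested genes these shares were 22.7% and 33.4%. Averaged over the 8 genes, log2 CPM centred per gene was 0.32 in PELP1 FBKO 1 and 0.03 in PELP1 FBKO 2, against -0.32 in FLOXED 1 and -0.04 in FLOXED 2. The second libraries of the genotypes were thus closer to each other than to their own replicates. Of the 8 fold changes 7 were positive with all libraries, 5 without PELP1 FBKO 1 and 5 without FLOXED 1. Median log2 fold changes were 0.12 without PELP1 FBKO 1 and 0.14 without FLOXED 1, but 0.49 without PELP1 FBKO 2 and 0.40 without FLOXED 2.

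Other glucocorticoid-induced genes went both ways. Of 36 such genes, all tested, 22 had a positive and 14 a negative fold change, with a median of 0.19. Before adjustment 10 were higher and 3 lower with p below 0.05, and 16 lay above and 6 below without overlap, where over all tested genes 10.1% were higher and 5.55% lower by that p, and 25.4% lay above and 23% below. None passed the adjusted threshold by edgeR's quasi-likelihood test, while DESeq2 called 5 higher and 1 lower, against 2.19% and 0.892% over all genes it tested.

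The lipid droplet protein gene Plin4 was at 74.8 and 50.6 CPM in PELP1 FBKO against 6.79 and 18.0 CPM in FLOXED, a log2 fold change of 2.32 (SE 0.39, edgeR adjusted p = 0.0697). Plin4 was higher in PELP1 FBKO under all 15 alternatives. Txnip, whose product binds thioredoxin and restrains glucose uptake, was at 31.3 and 36.3 CPM in PELP1 FBKO against 11.1 and 14.0 CPM in FLOXED, with a difference of 1.42 in log2 (SE 0.18, adjusted p = 0.0501, past the threshold in 13 of 15 alternatives). Log2 fold changes were 1.05 (SE 0.29) for the kinase gene Map3k6, 0.83 (SE 0.20) for Fam107a, 0.80 (SE 0.23) for the arrestin-domain gene Arrdc2, 0.69 (SE 0.13) for the astrocytic connexin gene Gjb6 and 0.64 (SE 0.18) for Glul, the glutamine synthetase of astrocytes. None of these 7 genes had overlapping genotypes, but they were named for being among the 10 smallest p of the 36, which favours such separation. Arrdc2 had a log2 fold change of 0.45 without PELP1 FBKO 1.

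On the lower side stood Cebpb and Cebpd, transcription factor genes that cytokines induce as well as glucocorticoids, and the transglutaminase gene Tgm2. Cebpb was at 8.07 and 8.57 CPM in PELP1 FBKO and at 18.0 and 13.6 CPM in FLOXED, a log2 fold change of -0.92 (SE 0.20, edgeR adjusted p = 0.0983). Cebpd had -0.69 (SE 0.24), with -0.38 without PELP1 FBKO 1 and -1.11 without PELP1 FBKO 2. Tgm2 had -0.65 (SE 0.20), with -0.41 without PELP1 FBKO 1. Log2 fold changes were 0.19 (SE 0.14) for the clock gene Per1 and 0.24 (SE 0.17) for the phosphatase gene Dusp1. For the mTOR inhibitor gene Ddit4 the value was 0.27 (SE 0.16). Both PELP1 FBKO libraries lay above both FLOXED libraries for Per1, Dusp1 and Ddit4, as for 25.4% of all tested genes, but by narrow margins. Dusp1 was nearly tied, at 23.852 CPM in PELP1 FBKO 2 and 23.851 CPM in FLOXED 2. Per1 was at 73.9 CPM in PELP1 FBKO 2 and 73.2 CPM in FLOXED 2. Ddit4 was at 72.6 CPM in PELP1 FBKO 2 and 70.9 CPM in FLOXED 1. Without PELP1 FBKO 1 the log2 fold changes were 0.03 for Per1, 0.12 for Dusp1 and 0.03 for Ddit4. Dusp1 was at 0.10 without FLOXED 1. The metallothionein gene Mt2 ranged from 234 to 441 CPM within PELP1 FBKO and from 310.4 to 492 CPM within FLOXED.

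The receptor genes and the enzyme gene that supplies hormone inside cells had small fold changes and overlapping genotypes. Nr3c1, the glucocorticoid receptor gene, was at 97.1 and 92.5 CPM in PELP1 FBKO and at 78.2 and 97.8 CPM in FLOXED (log2 fold change 0.11, SE 0.15, edgeR adjusted p = 0.773). The mineralocorticoid receptor gene Nr3c2 differed by -0.14 in log2 (SE 0.19), and Hsd11b1, which regenerates active corticosterone, had 0.03 (SE 0.16). The sign of each of these 3 fold changes turned when a library was left out, to -0.05 for Nr3c1 without FLOXED 1, to 0.04 for Nr3c2 and -0.15 for Hsd11b1 without FLOXED 2, and to 0.07 for Nr3c2 and -0.03 for Hsd11b1 without PELP1 FBKO 2. Abcb1a, the blood-brain barrier pump that exports glucocorticoids such as dexamethasone, was at 37.2 and 27.8 CPM in PELP1 FBKO against 10.2 and 19.1 CPM in FLOXED, a log2 fold change of 1.14 (SE 0.29, adjusted p = 0.127). Abcb1a also stands in the endothelial marker list.

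Hsp90aa1, which encodes an HSP90 chaperone that holds the receptor ready for hormone, was at 219 and 267 CPM in PELP1 FBKO and at 411 and 389.6 CPM in FLOXED, a log2 fold change of -0.72 (SE 0.15, edgeR adjusted p = 0.0935). The co-chaperone genes Stip1 and Ptges3 had -0.61 (SE 0.15) and -0.55 (SE 0.18), Hsp90ab1 had -0.43 (SE 0.17), and Fkbp4, whose product opposes FKBP51 in the complex, had -0.32 (SE 0.13). In each of these 5 genes both PELP1 FBKO libraries lay below both FLOXED libraries, and none of the 5 passed the adjusted threshold. All of them but Fkbp4 were named for being among the 6 smallest p of the list, which favours such separation. Over the 22 tested genes of the list, 6 lay below and 3 above without overlap. Over all tested genes 23% lay below and 25.4% above. Ptges3 had -0.36 without FLOXED 1. The co-chaperone gene Bag1, named after its value was seen, overlapped between genotypes (-0.21, SE 0.15, adjusted p = 0.534), as did Fkbp5. Crhr1, the receptor for corticotropin-releasing hormone, was at 8.12 and 7.98 CPM in PELP1 FBKO against 14.7 and 11.1 CPM in FLOXED (log2 fold change -0.67, SE 0.20). Over the 22 tested genes of this list of 24, edgeR's quasi-likelihood test passed 0 at the adjusted threshold, and the median log2 fold change was 0.03. Before adjustment 1 was higher and 6 were lower with p below 0.05, against 10.1% and 5.55% of all tested genes. DESeq2 called 1 higher and 3 lower, against 2.19% and 0.892% of all genes it tested.

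**Figure D3:**
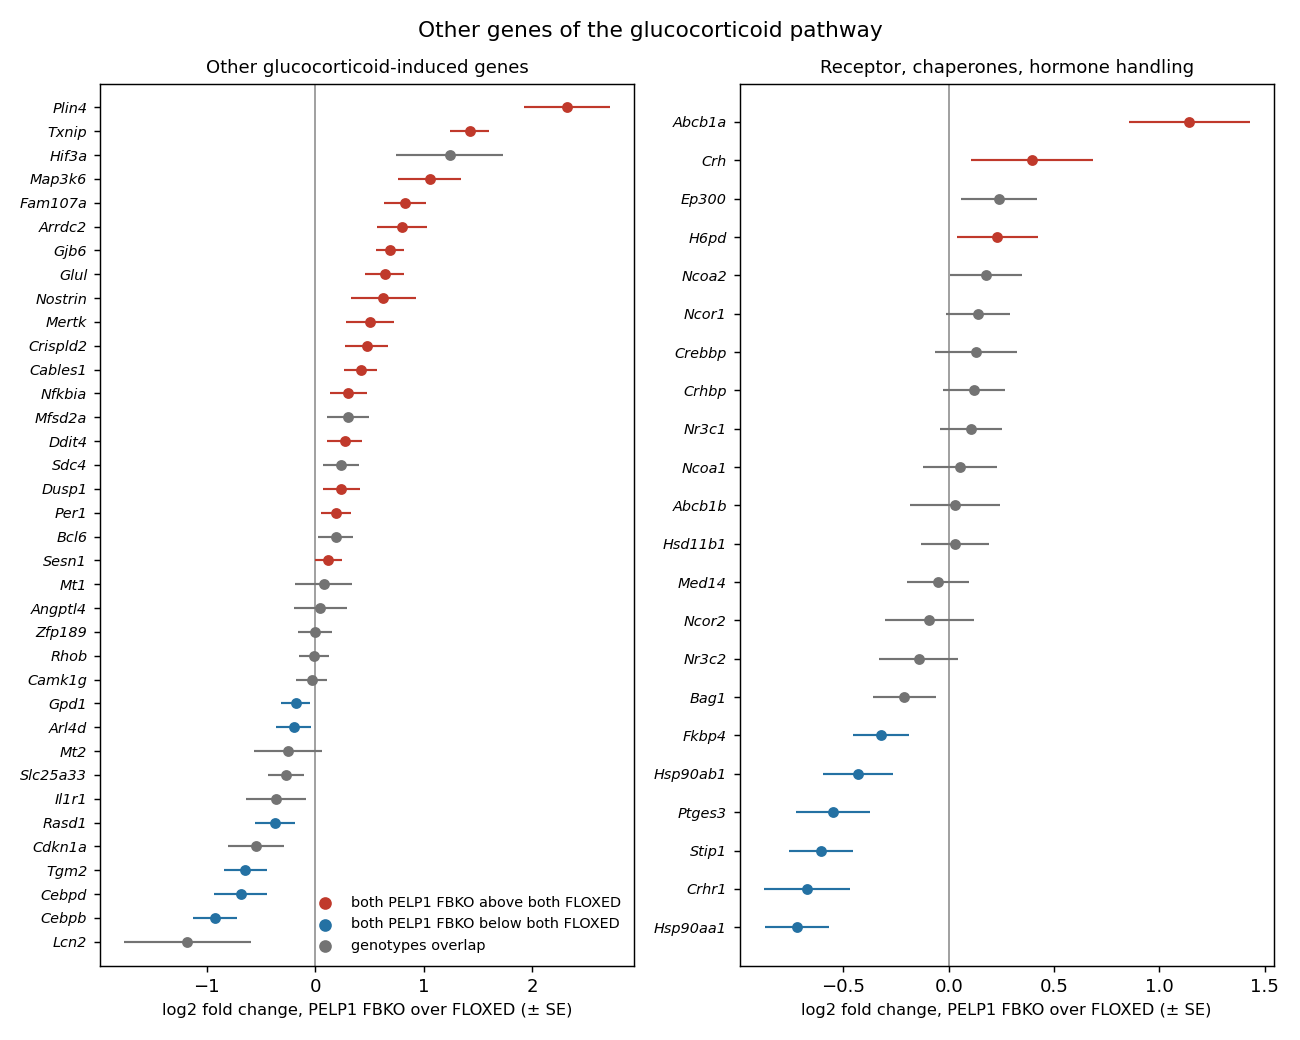
Log2 fold change with SE, PELP1 FBKO over FLOXED, for 36 other glucocorticoid-induced genes (left) and the 22 tested genes of the receptor, its chaperones and hormone handling (right). Red and blue mark genes whose libraries do not overlap between genotypes. Induced genes run from -1.18 for Lcn2 to 2.32 for Plin4, and the receptor and handling genes from -0.72 for Hsp90aa1 to 1.14 for Abcb1a.

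By pattern alone, the genes nearest to Sult1a1 over the 4 libraries were Acot11, Arhgef10, Notch2, Plekhg3 and Slco1a4, with distances of 0.062 to 0.122 in centred log2 CPM among 9686 genes. Acot11 averaged 62.4 ± 8.85 CPM in PELP1 FBKO and 31.0 ± 5.25 CPM in FLOXED (SD, n = 2 each), and Slco1a4, a transporter gene of brain endothelium, 54.8 ± 3.27 CPM in PELP1 FBKO and 28.8 ± 3.45 CPM in FLOXED. With only 4 libraries a close pattern says little. At a wider distance of 0.25, 50 of the 9686 genes were included.

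Marker lists of several cell types differed between the same libraries. No single marker passed the adjusted threshold by edgeR's quasi-likelihood test, where 0% of all tested genes did. In bulk tissue, fewer cells of a type and less RNA per cell cannot be told apart. Lists of 12 markers each were summed per library. Oligodendrocyte markers, including Aspa (25.1 and 27.6 CPM in PELP1 FBKO against 12.7 and 10.3 CPM in FLOXED) and Mog (log2 fold change 0.87), were positive in 12 of 12 and summed to 6022 and 6482 CPM in PELP1 FBKO against 3027 and 3883 CPM in FLOXED. Astrocyte markers, led by Gja1 (1.13) and Slc39a12 (1.05), were positive in 11 of 12 and summed to 6675 and 6223 CPM in PELP1 FBKO against 4011 and 4929 CPM in FLOXED. Endothelial and mural markers were positive in 12 of 12, with Slco1a4 at 0.93 and Abcb1a at 1.14, and their sums were 456 and 424 CPM in PELP1 FBKO against 265 and 346 CPM in FLOXED. These glial and vascular lists were all lowest in FLOXED 1, the library in which 6 of the 8 members were lowest.

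Microglial markers, with Csf1r (0.81) and Ctss (0.87), were positive in 12 of 12 and summed to 929.6 and 1290.4 CPM in PELP1 FBKO against 842 and 754 CPM in FLOXED. Meningeal fibroblast markers, with Ogn (1.17) and Igf2 (1.02), were positive in 11 of 12. They summed to 256 and 349 CPM in PELP1 FBKO against 189 and 239 CPM in FLOXED. Of the 12, 8 overlapped between genotypes, as did 7733 of all 14978 tested genes. Their centred mean was -0.09 in PELP1 FBKO 1, below FLOXED 2 at -0.07, with PELP1 FBKO 2 at 0.71 and FLOXED 1 at -0.55. In the other lists with 12 tested markers, overlapping ones numbered 1 (oligodendrocyte), 2 (endothelial), 3 (astrocyte), 4 (CA1), 5 (dentate) and 6 (microglial). Dentate granule cell markers were positive in 9 of 12, with a median log2 fold change of 0.25. Prox1 (0.93) and Dsp (0.95) lay well above that median. The list summed to 869 and 690.3 CPM in PELP1 FBKO against 621 and 648 CPM in FLOXED. In centred means, the dentate and the endothelial lists had the same order of libraries as the 8 members: PELP1 FBKO 1, PELP1 FBKO 2, FLOXED 2, FLOXED 1, from high to low. CA1 pyramidal cell markers were negative in 12 of 12, including Pou3f1 (-0.93) and Lefty1 (-1.04), and summed to 914 and 819.9 CPM in PELP1 FBKO against 1109 and 1286 CPM in FLOXED.

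Choroid plexus markers were positive in 6 of the 9 tested of 12, and most were low. Transthyretin (Ttr) was at 21.4 and 33.9 CPM in PELP1 FBKO against 324 and 67.5 CPM in FLOXED, while Enpp2, which oligodendrocytes express too, was higher (log2 fold change 0.81). The 10 markers other than these summed to 37.0 and 38.8 CPM in PELP1 FBKO against 35.9 and 39.0 CPM in FLOXED, and Kl alone was at 25.7 and 18.6 CPM in PELP1 FBKO and at 20.5 and 26.2 CPM in FLOXED. Like Ttr, the scarce markers Kcne2 (0.0907 and 0.343 CPM in PELP1 FBKO, 1.71 and 0.231 CPM in FLOXED) and Slc4a5 (0.227 and 0.147 CPM in PELP1 FBKO, 1.03 and 0.138 CPM in FLOXED) were highest in FLOXED 1, the library in which 6 of the 8 members were lowest. Averaged over the 7 tested markers other than Ttr and Enpp2, centred log2 CPM was instead highest in PELP1 FBKO 2. It was -0.26 and 0.39 in PELP1 FBKO against -0.02 and -0.12 in FLOXED. Of these 7 markers, 5 had a positive and 2 a negative log2 fold change, from -0.38 to 0.69. Outside FLOXED 1, the values of Kcne2 and Slc4a5 lay near or below the floor of 3 reads. Otx2, which like these 2 did not pass the count filter, had log2 fold changes from -0.08 to 2.35 over 6 alternatives. Kl, Kcne2, Slc4a5 and Otx2 were named after their values were seen. No marker in these 8 lists was at 0 reads in any library. The part of any of these cell types in the levels of the glucocorticoid-induced genes was not tested.

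**Figure D4:**
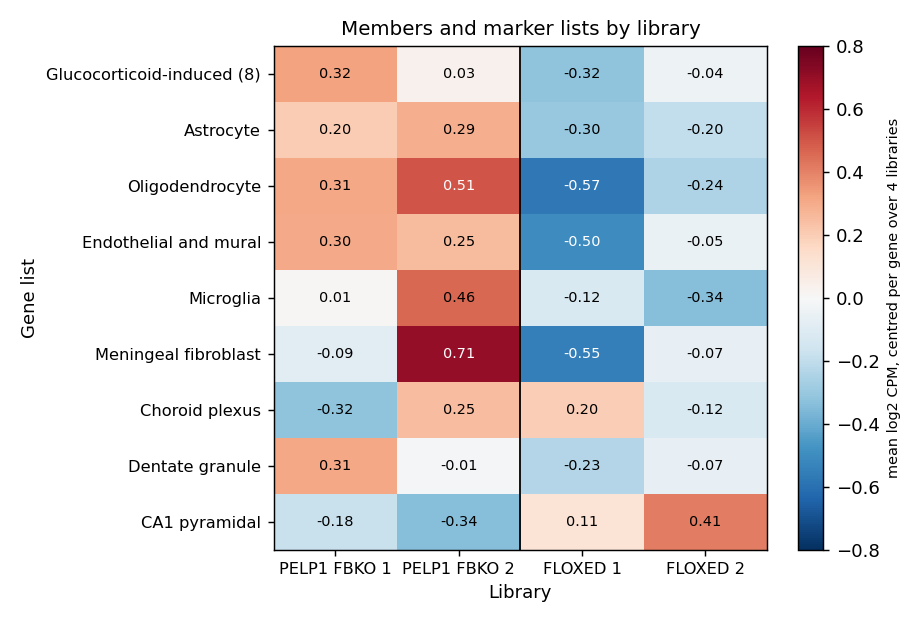
Mean log2 CPM, centred per gene over the 4 libraries, for the 8 glucocorticoid-induced genes and 8 marker lists; columns are libraries, with PELP1 FBKO left of FLOXED, and each cell prints its value. The members stand at 0.32 in PELP1 FBKO 1 and -0.32 in FLOXED 1, the dentate granule list at 0.31 and -0.23 in those libraries.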

How the data were processed

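Hippocampal RNA was sequenced as 50-base single reads, per the labels' protocols. The deposited values are raw read counts per gene symbol, without normalization by the authors; CASAVA 1.8.2, TopHat2 2.0.8b, HTSeq and mm9 are named in the submitters' processing notes, while the series text names a human build. Strand setting and annotation are not given in the sources used here. Of HTSeq's output, 5 summary rows entered neither library sizes nor tests; 14.7% to 15.7% of uniquely placed reads lay in no gene. A gene with 0 reads (floor of 3) could have up to 0.171 CPM in the shallowest library, counting error only.

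The fit used edgeR 4.0.16 (R 4.3.3): filterByExpr, TMM, quasi-likelihood F test of genotype over 14978 genes, Benjamini-Hochberg adjustment, threshold 0.05. Standard errors come from the F statistic. Alternatives were DESeq2 1.42.0, limma-voom (limma 3.58.1), the exact test, robust fitting, other size factors and filters, a replicate block and the omission of each library. Length and GC offsets and a crossed block were added after seeing the data.

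The members and lists were chosen with earlier results of these data known. Named were all members, Pelp1, Nr3c1, Nr3c2, Hsd11b1, Fkbp4 and the 6 smallest p of the receptor list. Of the other induced genes, the 10 smallest p were named with Per1, Dusp1, Ddit4 and Mt2. The 2 smallest p of each marker list were named, as were the 5 genes nearest to the member with the smallest p. Lcn2 is named as the end of a range. Dcn, Abcb1a, Gjb6 and Nr3c2 each stand in 2 lists.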

Additional observations from a re-analysis of the deposited data

How the results depend on the processing

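Of 120 fold changes of single members under the alternatives, 105 kept their direction and side of the threshold, 9 passed it (Sult1a1 and Pdk4) and 6 turned sign. The last were Fkbp5 (-0.04 without FLOXED 1, -0.17 without PELP1 FBKO 1), Klf9 (-0.09 and -0.10 without the same libraries, -0.053 with length and GC offsets) and Errfi1 (0.0087 without PELP1 FBKO 2). Leaving out a library, log2 fold changes ran from -0.17 to 0.24 for Fkbp5, from -0.10 to 0.11 for Klf9 and from -0.13 to 0.0087 for Errfi1. The cause was not tested.

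Against 0 as reported, members passing numbered 1, always Sult1a1, with no count filter, by DESeq2, by the exact test and with either block, and 0 to 2 leaving out a library. Other induced genes passing numbered 1 with either other size factor, with a minimum of 50 reads per library and with robust fitting, 5 with no filter, 6 by DESeq2, 8 by the exact test, 3 with length and GC offsets, and 0 to 12 leaving out a library. Receptor and handling genes numbered 2 with no filter, 4 by DESeq2, 3 by the exact test, 1 with length and GC offsets, and 0 to 2 leaving out a library. Over all genes the counts were 17 with DESeq2 size factors, 42 with upper-quartile factors, 359 with no filter, 43 with at least 50 reads, 449 by DESeq2, 759 by the exact test, 86 with robust fitting, 241 with length and GC offsets, 0 by limma-voom, and 0 without FLOXED 1 to 598 without PELP1 FBKO 2.

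The replicate number as a block gave 566 genes over all, 1 member, 6 other induced genes and 2 receptor and handling genes; nothing in the labels says that the numbers pair libraries. Deviations of same-numbered libraries from their genotype means correlated at -0.118 over 14978 genes, and with crossed replicate numbers as the block the counts were 314, 1, 6 and 3. With 2 libraries per genotype the estimates are imprecise, and a fold change that missed the threshold is not shown to be absent.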
